A study of Homo sapiens with 12 samples.

Results

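The 10 genes described here lie in band 4q35, close to the end of the long arm of human chromosome 4: SLC25A4, CFAP97, SNX25, LRP2BP, ANKRD37, UFSP2, SORBS2, FAM149A, CYP4V2 and FAT1, in order from the centromere toward the telomere. They were taken by symbol from an interval of 2 Mb that runs from before SLC25A4 to beyond FAT1 (chr4:185143266-186726696 of GRCh38), 10 of the 61163 genes in the count tables, because the median difference between knockout and wild-type cells in this interval was high in these same libraries. The difference between genotypes was therefore part of the choice, and for the 10 genes it is given as a description without a test.

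RNA was sequenced from HEK293T cells, an immortalised line derived from human embryonic kidney, after separation into a nucleolar fraction (NO) and a combined cytoplasmic and nuclear fraction (CN). HEK WT are unedited HEK293T cells, and HEK UL1 KO are HEK293T cells in which CRISPR-Cas9 cut exons 2 and 3 of HNRNPUL1. Each of the 4 groups, HEK WT NO, HEK UL1 KO NO, HEK WT CN and HEK UL1 KO CN, held 3 libraries, described by the submitters as biological triplicates. All cells were grown in the same medium with no drug or stimulus named in the labels, rRNA was not depleted, and whether HEK UL1 KO is a single clone is not given in the sources used here.

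hnRNP UL1 is an RNA-binding protein of the cell nucleus that has been linked to RNA processing and to the repair of DNA breaks. Band 4q35 holds genes of unrelated function, from a mitochondrial carrier to a giant cadherin, and it ends in a repeat array whose shortening is a cause of facioscapulohumeral muscular dystrophy. SLC25A4, PDLIM3 and SORBS2 of this band are best known from muscle, a tissue that HEK293T cells do not represent.

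The genes span 1583 kb, and 5 lie on each strand. Several of them start close to one another on opposite strands. The nearest listed start sites of CFAP97 (minus strand) and SNX25 (plus strand) are 237 bases apart. LRP2BP and ANKRD37 have starts 917 bases apart that run away from each other. Another LRP2BP start, at 185397287, lies beyond the ANKRD37 start at 185396841, and these gene bodies overlap by 447 bases. UFSP2 starts 290 bases from CFAP96, which the tables list as C4orf47. Gene length runs from 3.88 kb in ANKRD37 to 371 kb in SORBS2. Exons of ANKRD37 and UFSP2 overlap on opposite strands by 909 bases, which is 40.3% of the exon bases of ANKRD37 and 32.7% of those of UFSP2. SNX25 and LRP2BP share 100 exon bases. The strand setting used in counting is not given in the sources used here, so reads from these shared stretches cannot be assigned to one gene of a pair with certainty.

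The start sites of 4 genes are shown, from 250 bases before to 50 bases after each start (RefSeq, GRCh38.p14, 5′ to 3′ on the strand of the gene). They contrast GC-rich starts that lie close to another start with the upstream start of SORBS2, the gene with the greatest difference between genotypes. Capitals mark matches on either strand to the core of the hypoxia response element (ACGTG) and its relative GCGTG, to the CCAAT box, and to the letters GGGCGG and CCGGAA that Sp and ETS factors are known to bind. Adjoining matches run together. CFAP97 is at chr4:185203951-185204250 (minus strand), LRP2BP at chr4:185395875-185396174 (minus strand), ANKRD37 at chr4:185396591-185396890 (plus strand) and SORBS2 at chr4:185956323-185956622 (minus strand).
CFAP97: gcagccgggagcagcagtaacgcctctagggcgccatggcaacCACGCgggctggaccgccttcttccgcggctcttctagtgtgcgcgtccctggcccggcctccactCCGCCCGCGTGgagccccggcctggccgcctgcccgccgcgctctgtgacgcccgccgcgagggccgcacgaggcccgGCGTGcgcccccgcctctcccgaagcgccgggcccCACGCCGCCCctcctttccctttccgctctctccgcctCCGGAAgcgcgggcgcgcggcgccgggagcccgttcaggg
LRP2BP: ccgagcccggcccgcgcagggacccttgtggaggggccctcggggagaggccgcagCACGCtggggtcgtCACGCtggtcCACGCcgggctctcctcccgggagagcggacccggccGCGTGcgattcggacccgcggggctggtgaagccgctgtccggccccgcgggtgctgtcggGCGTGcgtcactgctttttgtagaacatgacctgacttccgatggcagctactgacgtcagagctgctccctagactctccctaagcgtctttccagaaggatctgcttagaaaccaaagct
ANKRD37: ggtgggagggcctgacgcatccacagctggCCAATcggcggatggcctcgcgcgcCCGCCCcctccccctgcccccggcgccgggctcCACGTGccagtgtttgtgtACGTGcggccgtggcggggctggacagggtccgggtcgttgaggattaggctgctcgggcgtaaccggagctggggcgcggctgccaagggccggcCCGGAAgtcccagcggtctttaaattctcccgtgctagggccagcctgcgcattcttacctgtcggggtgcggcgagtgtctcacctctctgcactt
SORBS2: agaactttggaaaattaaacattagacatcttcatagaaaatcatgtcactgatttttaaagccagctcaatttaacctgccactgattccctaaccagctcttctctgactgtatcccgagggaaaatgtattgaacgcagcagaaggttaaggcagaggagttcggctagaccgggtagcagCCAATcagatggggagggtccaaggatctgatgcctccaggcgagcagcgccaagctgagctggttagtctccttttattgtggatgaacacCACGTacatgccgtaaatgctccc

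The 10 genes have 24 such windows in RefSeq, with a median GC content of 58.2%, against 58.7% over all 35116 windows of human genes. SORBS2 has 8 of the 24, and each of its windows had a GC content from 38.7 to 49.7%. The CFAP97 and SNX25 windows that face each other had 77.7 and 76.3%. GC-rich windows were not confined to the centromere side, with 76.0 and 77.3% in FAT1 and 72.0% in CYP4V2. The LRP2BP windows that are not printed had 30.0 and 42.7%. ACGTG was found in 25% of the 24 windows and in 21.4% of all windows, and the ANKRD37 window held 3 matches to it, counted over both strands. The shares among the 24 and among all windows were 45.8 and 36.5% for GCGTG, 41.7 and 34.6% for CCAAT, 45.8 and 45% for GGGCGG, 20.8 and 17.2% for CCGGAA, and 8.33 and 11.5% for TATAAA, which was found in LRP2BP and SORBS2. A match is a description of letters in these windows and no evidence of binding.

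Library totals ran from 54349399 to 104040073 counts in CN and from 37141666 to 83019079 in NO. Levels are given as library-size-scaled counts (CPM) after TMM scaling, made separately in each fraction. In NO, the scaling factor of HEK WT replicate 3 was 1.40, whereas it was 0.690 and 0.622 in the other HEK WT replicates and 1.09 to 1.34 in HEK UL1 KO. HNRNPUL1 itself was lower in HEK UL1 KO by edgeR's quasi-likelihood test, with a log2 fold change of -1.83 in CN (adjusted p = 2.12e-07) and -2.00 in NO (adjusted p = 0.00649). Of 5 genes known from HEK293T cells, LIN28B was at 14.9 CPM or more in CN and NEFL and NEFM at 3.14 CPM or more, while PAX2 and ENO2 were at 0.152 to 1.37 CPM. Genes of other cell types were at most 0.843 CPM in CN for the collagen gene COL1A1, 0.369 for the leukocyte gene PTPRC, 0.0843 for the liver gene ALB and 0.0253 for the erythroid gene HBB, and PTPRC reached 1.9 CPM in NO.

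In CN, each of the 10 genes had a higher level in all 3 HEK UL1 KO libraries than in any HEK WT library. Of all 27234 genes tested, 24.7% showed this pattern. Log2 fold changes ran from 0.76 in SNX25 to 3.54 in SORBS2 with a median of 0.99, against a median of 0.04 over all genes tested, of which 52.4% were above 0, and 8 of the 10 lay between 0.5 and 1.5. In NO, 9 of the 10 were higher without overlap, against 11.0% of 34836 genes, with a range of 0.73 in CYP4V2 to 2.13 in SORBS2 and a median of 0.88, where 50.3% of all genes were above 0. All 10 passed the filter on low counts in both fractions, ANKRD37 in NO only through its HEK UL1 KO libraries (9 to 11 counts in HEK WT and 18 to 51 in HEK UL1 KO). Because the rule used this contrast, nothing is read from these shares. In RNA from bulk cells, a change in the share of cells that express a gene and a change in RNA per cell cannot be told apart.

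**Figure D1:**
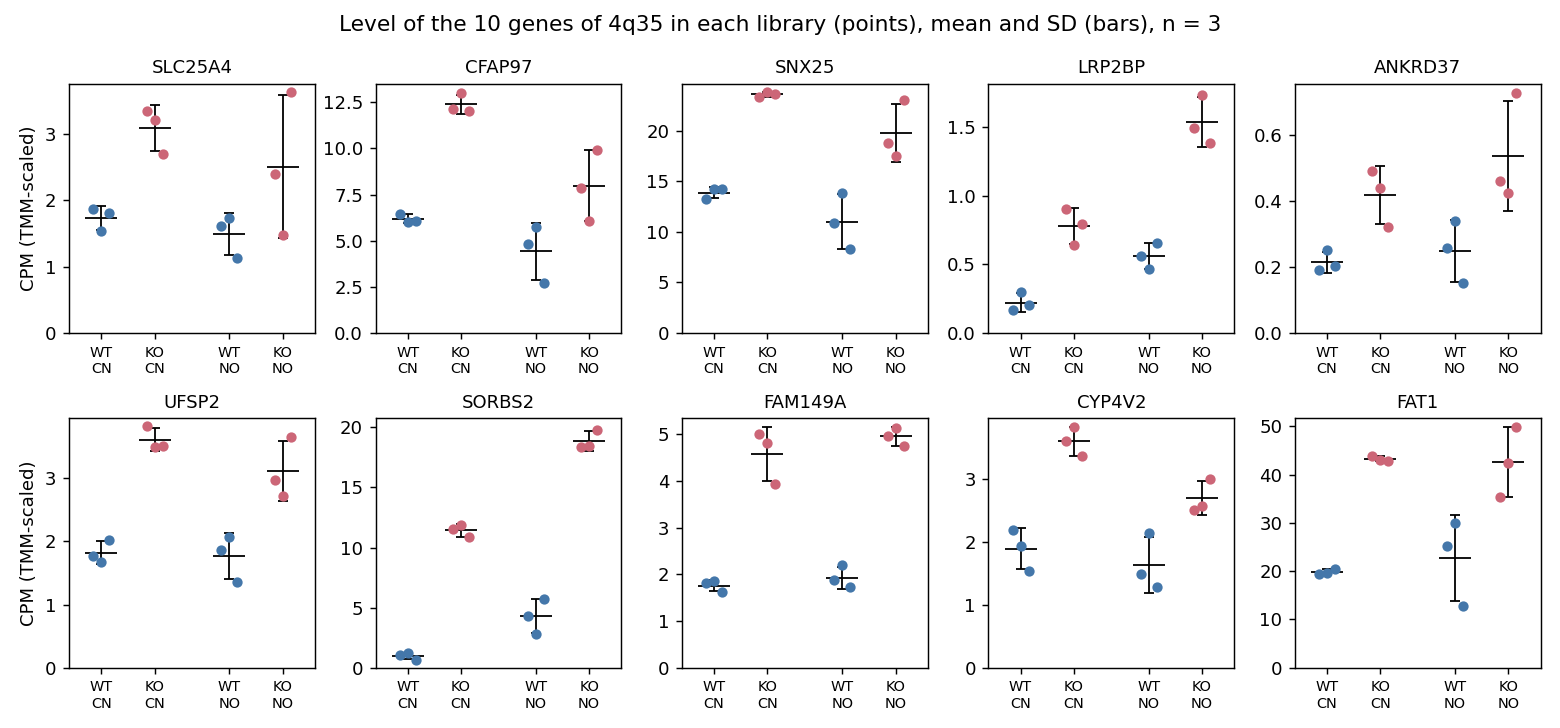
CPM (vertical axis, starting at 0, with a scale of its own for each gene) of the 10 genes in each library, grouped by genotype and fraction. Points are libraries, and bars are the mean and SD of 3. CPM were scaled separately in CN and NO, so levels compare only within a fraction. HEK UL1 KO points lie above all HEK WT points in every panel in CN, and in 9 of 10 panels in NO, SLC25A4 being the exception.

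SORBS2 encodes an adaptor protein of the actin cytoskeleton that is found at cell adhesions and at muscle Z-discs. In CN, its level was 1.03, 1.22 and 0.682 CPM in HEK WT and 11.6, 11.9 and 10.9 CPM in HEK UL1 KO. In NO, it was 4.31, 2.84 and 5.71 CPM in HEK WT and 18.3, 18.5 and 19.8 CPM in HEK UL1 KO. The groups were far apart in both fractions, with the KO libraries close to each other. The log2 fold change was 3.54 in CN (standard error 0.158), an 11.7-fold difference, and 2.13 in NO (standard error 0.312), a 4.38-fold difference. Leaving out 1 library at a time gave 3.39 to 3.73 in CN and 1.93 to 2.38 in NO.

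CFAP97, named for cilia and flagella, starts beside SNX25, as the first of the printed windows shows. In CN, the level of CFAP97 was 6.46, 6.02 and 6.08 CPM in HEK WT and 12.1, 13 and 12 CPM in HEK UL1 KO, with a log2 difference of 1.00 (standard error 0.0747). Its NO level was 4.82, 5.75 and 2.73 CPM in HEK WT and 7.88, 6.09 and 9.93 CPM in HEK UL1 KO, with a log2 difference of 0.85 (standard error 0.311). The replicates in NO spread more widely, and the gap between the nearest libraries of the genotypes was small.

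SNX25 encodes a sorting nexin, a protein of endosomal membranes. The level in CN was 13.2, 14.2 and 14.2 CPM in HEK WT and 23.3, 23.9 and 23.6 CPM in HEK UL1 KO, with a log2 difference of 0.76 (standard error 0.0672). The level in NO was 10.8, 13.8 and 8.36 CPM in HEK WT and 18.8, 17.5 and 23.0 CPM in HEK UL1 KO, with a log2 difference of 0.85 (standard error 0.298). SNX25 had the smallest log2 fold change of the 10 in CN, with libraries of each genotype that lay close together.

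LRP2BP encodes a protein that binds megalin, the endocytic receptor made from LRP2. The CN libraries had 0.166, 0.299 and 0.202 CPM in HEK WT and 0.902, 0.639 and 0.793 CPM in HEK UL1 KO, from 14 to 66 counts per library. The NO libraries had 0.564, 0.463 and 0.657 CPM in HEK WT and 1.5, 1.74 and 1.38 CPM in HEK UL1 KO. The log2 fold change was 1.80 in CN (standard error 0.281) and 1.43 in NO (standard error 0.310), the next highest after SORBS2 in both fractions.

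ANKRD37, an ankyrin repeat gene known as a target of the hypoxia-inducible factor HIF-1, had few counts, from 16 to 36 per library in CN and 9 to 51 in NO. In CN, its level was 0.190, 0.251 and 0.202 CPM in HEK WT and 0.492, 0.439 and 0.320 CPM in HEK UL1 KO, with a log2 difference of 0.96 (standard error 0.297). In NO, its level was 0.256, 0.340 and 0.152 CPM in HEK WT and 0.460, 0.423 and 0.726 CPM in HEK UL1 KO, with a log2 difference of 1.14 (standard error 0.438). The standard errors of ANKRD37 were the widest of the 10 in both fractions.

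UFSP2 encodes a protease that matures the ubiquitin-like protein UFM1 and removes it from its targets. The level in CN was 1.77, 1.67 and 2.02 CPM in HEK WT and 3.83, 3.50 and 3.51 CPM in HEK UL1 KO, with a log2 difference of 0.99 (standard error 0.116). The level in NO was 1.87, 2.07 and 1.36 CPM in HEK WT and 2.97, 2.73 and 3.65 CPM in HEK UL1 KO, with a log2 difference of 0.83 (standard error 0.280). ANKRD37, which shares exon bases with UFSP2, was at 0.96 in CN and 1.14 in NO. Whether the shared bases bear on these values was not tested.

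SLC25A4 encodes an ADP/ATP carrier of the inner mitochondrial membrane that is abundant in heart and skeletal muscle. In CN, its level was 1.86, 1.53 and 1.81 CPM in HEK WT and 3.35, 3.21 and 2.7 CPM in HEK UL1 KO, with a log2 difference of 0.83 (standard error 0.132). In NO, its level was 1.62, 1.73 and 1.13 CPM in HEK WT and 2.4, 1.48 and 3.63 CPM in HEK UL1 KO, with a log2 difference of 0.76 (standard error 0.331). HEK UL1 KO replicate 2 lay between the HEK WT libraries in NO, the 1 overlap among the 10 genes.

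CYP4V2 encodes a cytochrome P450 that hydroxylates fatty acids. The CN libraries held 2.20, 1.94 and 1.54 CPM in HEK WT and 3.61, 3.82 and 3.36 CPM in HEK UL1 KO, with a log2 difference of 0.93 (standard error 0.138). The NO libraries held 1.49, 2.13 and 1.28 CPM in HEK WT and 2.51, 2.56 and 3.00 CPM in HEK UL1 KO, with a log2 difference of 0.73 (standard error 0.284). The genotypes did not overlap in either fraction.

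FAM149A had a level of 1.82, 1.85 and 1.62 CPM in HEK WT and 5.01, 4.82 and 3.93 CPM in HEK UL1 KO in CN, with a log2 difference of 1.38 (standard error 0.124). In NO, its level was 1.87, 2.19 and 1.74 CPM in HEK WT and 4.97, 5.15 and 4.76 CPM in HEK UL1 KO, with a log2 difference of 1.36 (standard error 0.264). The KO libraries were thus more than 2 CPM above the WT libraries in both fractions.

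FAT1, which encodes a very large atypical cadherin of the cell surface, had the most counts of the 10, from 756 to 3929 per library in NO. In CN, its level was 19.4, 19.6 and 20.5 CPM in HEK WT and 43.9, 43.1 and 42.9 CPM in HEK UL1 KO, with a log2 difference of 1.13 (standard error 0.0673). In NO, its level was 25.2, 30.0 and 12.7 CPM in HEK WT and 35.4, 42.5 and 49.8 CPM in HEK UL1 KO, with a log2 difference of 0.91 (standard error 0.351). The CN libraries of each genotype were within a narrow range, and those of NO were not.

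Across the 10 genes in NO, HEK WT replicate 3, whose scaling factor stood apart, was the lowest HEK WT library in 8, and HEK UL1 KO replicate 3 was the highest HEK UL1 KO library in 8. Without HEK WT NO replicate 3, the 10 log2 fold changes ran from 0.56 to 2.38 with a median of 0.66. On the same CPM scale, 9 of 10 genes again did not overlap. Separation is easier with fewer HEK WT libraries, and the share of all genes was not counted for this setting. Nothing is therefore read from this count.

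Levels were compared between genes per kb of exon, with GENCODE exon lengths. In HEK WT CN, the mean ran from 2.75 CPM per kb in SNX25 through 1.23 in FAT1, 0.860 in CFAP97, 0.656 in UFSP2, 0.360 in SLC25A4, 0.213 in FAM149A, 0.194 in CYP4V2 and 0.0951 in ANKRD37 to 0.0382 in SORBS2 and 0.0301 in LRP2BP, a span of 91.4-fold. The libraries of FAM149A and CYP4V2 overlapped, as did those of SORBS2 and LRP2BP, and the other neighbours in this order did not. In HEK UL1 KO CN, SORBS2 was at 0.447 CPM per kb, between FAM149A at 0.555 and CYP4V2 at 0.368, and the span was 44.5-fold. The order of the other 9 was the same in both genotypes in CN. In NO, SORBS2 was at 0.167 CPM per kb in HEK WT and 0.737 in HEK UL1 KO, where it stood next after CFAP97 at 1.11.

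The interval holds 8 further protein-coding genes in the tables, which were not on the list. HELT had at most 12 counts in a library and was not tested. Each of the 6 tested in CN had a higher level in all HEK UL1 KO libraries than in any HEK WT library, as did each of the 7 tested in NO. The greatest log2 fold change was that of TLR3, the endosomal receptor for double-stranded RNA, at 2.61 in CN (standard error 0.386) and 2.43 in NO (standard error 0.395), from 4 to 35 counts per library in CN. The others were CFAP96 (listed as C4orf47) at 1.82 in CN and 1.49 in NO, the melatonin receptor gene MTNR1A at 1.68 and 1.72, the plasma kallikrein gene KLKB1 at 1.38 and 1.78, CCDC110 at 1.20 and 1.39, and PDLIM3, a muscle gene of the PDZ and LIM domain family, at 1.01 and 0.87. The coagulation factor gene F11 was tested in NO alone, at 1.83. The median of these genes was 1.53 in CN and 1.72 in NO. TLR3, KLKB1 and MTNR1A passed the filter only through their HEK UL1 KO libraries in both fractions, as did F11 in NO. Of all genes tested, 24.7% in CN and 11.0% in NO were higher in HEK UL1 KO without overlap. Since the interval was chosen for its median, these values are also given without a test, and nothing is read from the counts.

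The genes within 3 Mb on either side of the interval were not chosen by it and were tested. In CN, 16 of 21 passed the filter, and all 16 rose in HEK UL1 KO in edgeR's test (median log2 fold change 0.99), where 15.6% of all genes tested did. TRIML2 passed the filter only through its HEK UL1 KO libraries, and without it the count was 15 of 15. ENPP6, which encodes a choline-specific phosphodiesterase, rose by 1.55 (standard error 0.373) and the chromatin reader ING2 by 1.34 (0.133). On the telomere side, TRIML2 had a log2 fold change of 2.17 (0.424), from 3 to 4 counts per library in HEK WT and 10 to 17 in HEK UL1 KO, and FRG1 rose by 1.00 (0.109), a gene with near-identical copies elsewhere in the genome, so that its counts are uncertain. The smallest rise was that of CDKN2AIP, by 0.55 (0.146).

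The tested genes nearest to the interval were also above 0. Of the flanking genes that were not tested, MYL12BP2 (5 to 16 counts per library) had mean CPM in HEK UL1 KO of 0.823 times those in HEK WT in CN and 0.873 times in NO. At the centromere side, log2 fold changes in CN were 0.94 for the centromere protein gene CENPU and 0.73 for ACSL1, which encodes a long-chain acyl-CoA synthetase, beside 0.83 for SLC25A4, the first gene of the list inside. At the telomere side, FAT1, the last inside, had 1.13, followed by TRIML2 and FRG1 with the values above. In NO, the values were 0.69 for CENPU, 0.96 for ACSL1, 1.49 for the pluripotency-associated gene ZFP42 and 1.46 for TRIML2. In NO, 18 of the 21 genes passed the filter, 18 had a log2 fold change above 0 (median 1.01) and 16 did not overlap between genotypes. Over all genes tested in NO, 50.3% were above 0 and 11.0% were higher without overlap. Of the 18 flanking genes, 3 rose in edgeR's test, where 0.365% of all genes did: the interferon regulatory factor gene IRF2 by 1.43 (adjusted p = 0.0247), ENPP6 by 1.34 (adjusted p = 0.0380) and TRIML1 by 2.55 (adjusted p = 0.0236). TRIML1, at 2 to 4 counts in HEK WT and 17 to 46 in HEK UL1 KO, passed the filter only through HEK UL1 KO, as did TRIML2 and ZFP42. Without these genes, 2 of 15 were called and 15 of 15 were above 0 (median 0.97). Overlap was not recounted without them. Over the alternatives, the call was lost in 4 of 13 for IRF2, 6 of 13 for ENPP6 and 5 of 12 for TRIML1. Of all flanking genes, 13 were called without HEK WT NO replicate 3, and 0 without HEK WT NO replicate 1, HEK WT NO replicate 2 or HEK UL1 KO NO replicate 2. The share of all genes called is given for the main fit alone, so nothing is read from these counts.

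**Figure D2:**
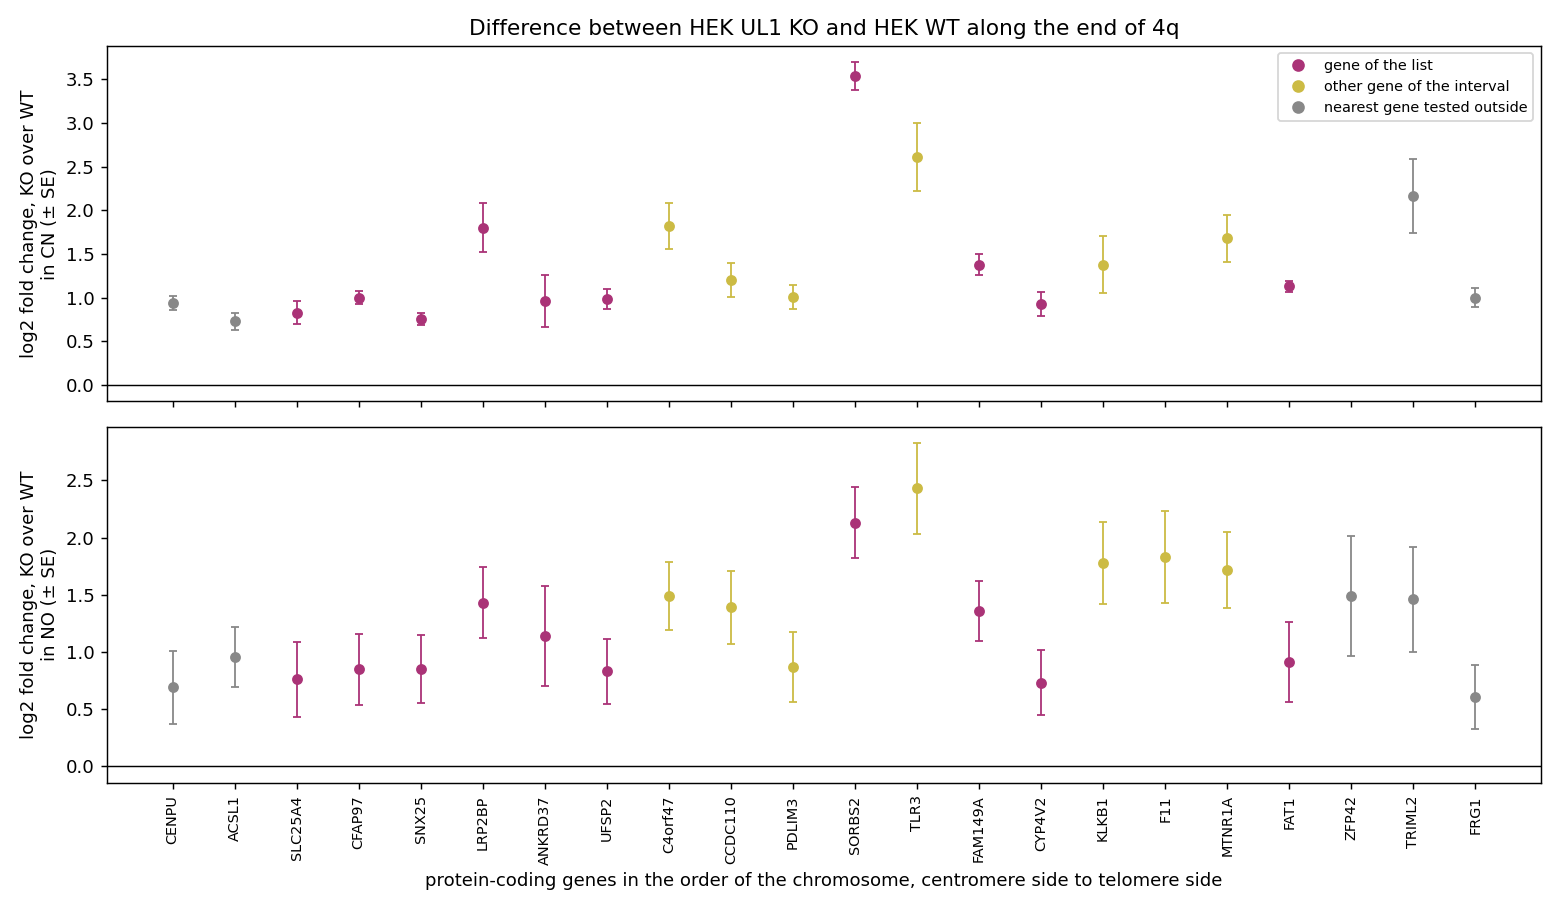
Log2 fold change of HEK UL1 KO over HEK WT (vertical axis, with standard error) in CN (top) and NO (bottom) for the protein-coding genes of the interval that passed the filter and the nearest genes tested on either side, in chromosome order. All points shown lie above 0, with SORBS2 at 3.54 and TLR3 at 2.61 as the highest in CN and TLR3 at 2.43 and SORBS2 at 2.13 in NO.

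Along the whole of chromosome 4, protein-coding genes were summarised in bins of 10 Mb, a choice made after the values had been seen. Toward the tip of the short arm, the median log2 fold change from 0 to 10 Mb was 0.47 in CN (93 of 100 genes above 0) and 0.35 in NO, and from 30 to 50 Mb the bins had 0.39 and 0.55 in CN and 0.47 and 0.44 in NO. From 120 to 130 Mb, the median log2 fold change was -0.41 in CN and -0.44 in NO. It was 0.50 and 0.46 from 130 to 140 Mb, and stayed between 0.43 and 0.53 in CN and between 0.46 and 0.65 in NO as far as 180 Mb. From 180 to 190 Mb, the bin that holds the 10 genes, it was 1.01 in CN and 1.04 in NO, and 32 of 32 genes in CN and 35 of 35 in NO were above 0. This bin consists of the 10 genes, the other tested genes of the chosen interval and the tested flanking genes. It adds no genes to those described above, and part of it was chosen on this contrast. Over all protein-coding genes, 47.5% in CN and 41.0% in NO were above 0. The single gene tested in CN beyond 190 Mb was DUX4, of the terminal repeats, with a log2 fold change of 0.35 and counts that are uncertain because of its near-identical copies. Over all protein-coding genes outside chromosome 4, the median was -0.05 in CN and -0.14 in NO.

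**Figure D3:**
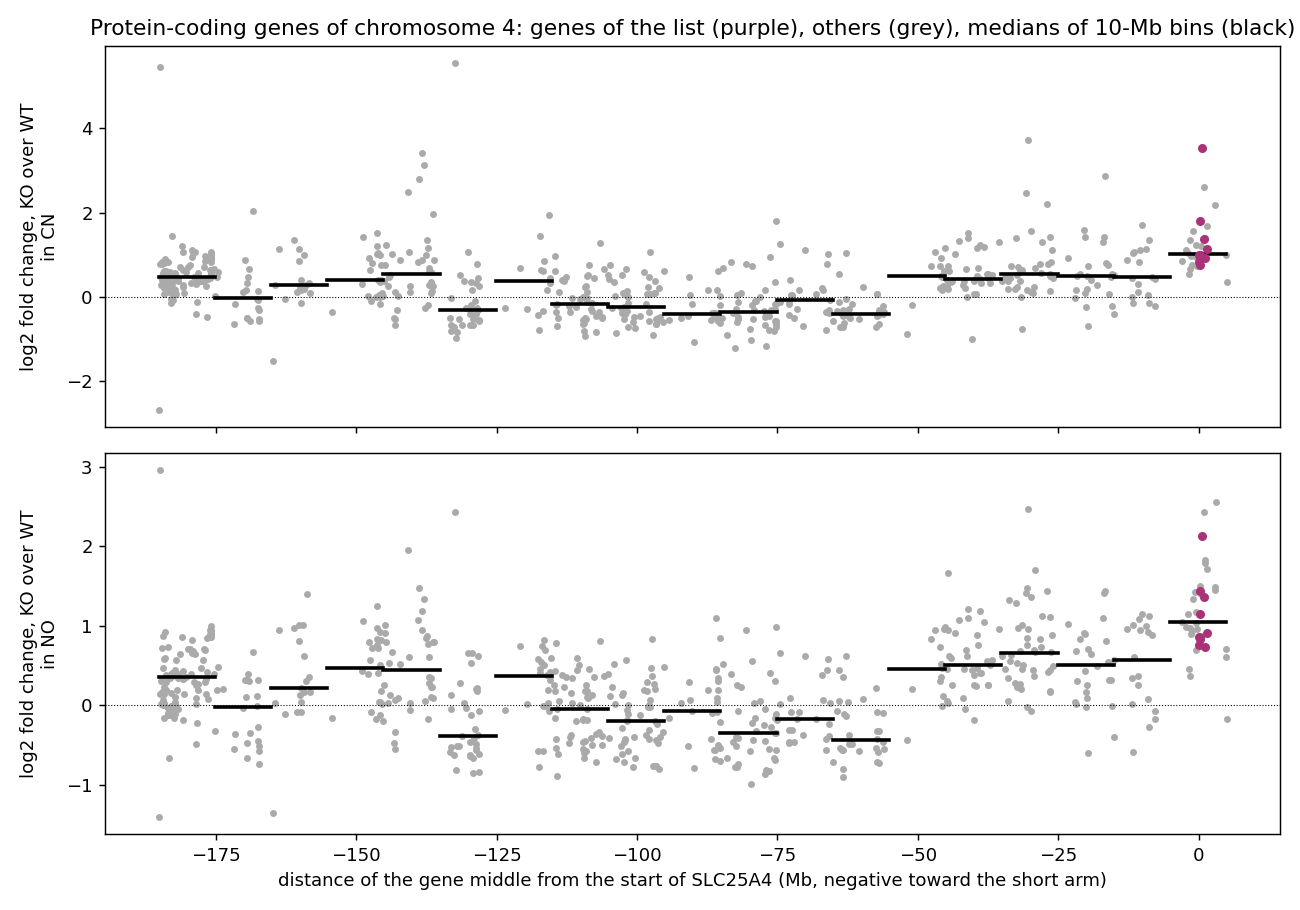
Log2 fold change of HEK UL1 KO over HEK WT (vertical axis) in CN (top) and NO (bottom) for each protein-coding gene of chromosome 4, against its distance in Mb from the start of SLC25A4. Purple points are the 10 genes, grey points the others, and black lines the medians of 10-Mb bins with at least 10 genes. The line is at -0.41 in CN in the bin that starts at 120 Mb, near 0.5 in the next 5 bins and at 1.01 in the bin of the 10 genes.

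Genes related to the 10 by family or pathway, most of them on other chromosomes, were taken from 9 lists of 64 genes. In CN, 53 were tested, of which 10 rose and 16 fell in HEK UL1 KO (18.9% rose, against 15.6% of all genes, of which 22.3% fell), with a median log2 fold change of -0.02. In NO, 62 were tested and 3 rose, with a median of -0.09, where 0.365% of all genes rose and 0.574% fell. Of the 53 in CN, 26 had a log2 fold change above 0, against 52.4% of all genes. Among the 10 that rose in CN, SNX19 and CFAP97D2 passed the filter only through their HEK UL1 KO libraries.

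Among targets of HIF, the group of ANKRD37, 3 of 25 rose and 10 fell in CN. The glucose transporter gene SLC2A3 rose by 2.78 (standard error 0.160), although its reads could be split with its close copy SLC2A14. NDRG1 rose by 1.05 (0.109) and the mitophagy receptor gene BNIP3L by 0.41 (0.0977). MXI1, an antagonist of MYC, fell by 0.84 (0.0835), the HIF prolyl hydroxylase gene EGLN1 by 0.75 (0.0714) and the disulfide oxidase gene ERO1A by 0.69 (0.0781). In the UFM1 pathway, the group of UFSP2, 3 of 7 fell, among them ODR4, the partner of UFSP2, by 0.99 (0.0838) and UFM1 itself by 0.78 (0.102).

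Of the other ADP/ATP carriers, SLC25A5 (chromosome X) fell by 1.05 in CN (standard error 0.0785), from 20.4 to 22.4 CPM in HEK WT to 9.91 to 11.3 CPM in HEK UL1 KO, while SLC25A4 was higher. SLC25A5 has processed pseudogenes, so its counts are uncertain. Among FAT and Dachsous cadherins, 2 of 6 rose: DCHS2 (chromosome 4, 154231742 to 154491799) by 2.45 (0.150) and FAT3 by 0.68 (0.0671). The rest of this list was not called in either direction. Of the sorting nexins with the domains of SNX25, SNX19 rose by 3.97 (0.236) and SNX13 fell by 0.64 (0.0685). LRP2, whose product binds that of LRP2BP, rose by 0.83 (0.0930), SORBS3 by 0.64 (0.223) and the P450 gene CYP4X1 by 0.62 (0.191). Of the paralogs of CFAP97 and FAM149A, CFAP97D2 rose by 1.05 (0.377), with CPM that overlapped between genotypes, and FAM149B1 fell by 0.37 (0.0862). In CN, SNX19 and CFAP97D2 passed the filter only through their HEK UL1 KO libraries. HEK WT held 11 to 30 counts of SNX19 and 10 to 22 of CFAP97D2, and HEK UL1 KO 215 to 326 and 19 to 31. Over 13 alternatives, the call was lost in 10 for SORBS3, 8 for CFAP97D2 and 6 for CYP4X1. In NO, the genes that rose were SNX19 by 1.86 (adjusted p = 0.00612 in edgeR's test), SLC2A3 by 1.47 (adjusted p = 0.0339) and DCHS2 by 1.42 (adjusted p = 0.0192). Over 13 alternatives each, the call was lost in 1 for SNX19, 4 for SLC2A3 and 4 for DCHS2. Without HEK WT NO replicate 3, 15 related genes were called in NO, of which 4 rose, and without HEK WT NO replicate 1 or HEK UL1 KO NO replicate 3 it was 1. The share of all genes called without these libraries is not given, so nothing is read from these counts.

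The difference between NO and CN, averaged over genotypes, was not used in choosing the genes and was tested on the 10. With TMM over all 12 libraries, 7 of the 10 were lower in NO and 2 were higher in edgeR's quasi-likelihood test, where 34.3 and 45.5% of all 37806 genes were. Of protein-coding genes, 49.6% were lower and 32.1% higher. The median over the 10 was -0.68, beside -0.38 over protein-coding genes and 0.26 over all genes. With total counts in place of TMM, the median of all genes moved by 0.69 to 0.96, the calls that held were CFAP97 (lower) and LRP2BP and SORBS2 (higher), and the sign flipped for ANKRD37, FAM149A and FAT1.

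CFAP97 was lower in NO by 1.22 on the log2 scale (standard error 0.167, adjusted p = 9.97e-06), with means of 7.99 CPM in CN and 3.43 CPM in NO in HEK WT and 15.1 and 6.53 CPM in HEK UL1 KO. CYP4V2 had a log2 difference of -0.98 (adjusted p = 2.15e-05), SNX25 of -0.95 (adjusted p = 1.86e-05), SLC25A4 of -0.92 (adjusted p = 0.000358) and UFSP2 of -0.79 (adjusted p = 0.000106). FAT1 had -0.58 (adjusted p = 0.00514) and FAM149A -0.53 (adjusted p = 0.000967), both of which changed sign with total counts. Relative to the median of all genes, FAT1 was at -0.84 with TMM and -0.93 with total counts, and FAM149A at -0.79 and -0.82. ANKRD37 did not pass, at -0.40 (adjusted p = 0.159), and it also changed sign with total counts. Its values relative to the median of all genes were -0.66 and -0.72. These genes are protein-coding, and the median over protein-coding genes with TMM was -0.38. ANKRD37, at -0.40, was close to that median, and FAM149A and FAT1 were below it at -0.53 and -0.58. No test against protein-coding genes was made. The values relative to all genes do not by themselves set ANKRD37, FAM149A or FAT1 apart from protein-coding genes in general.

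The genes higher in NO were SORBS2, with a log2 difference of 0.79 (standard error 0.173, adjusted p = 0.000526), and LRP2BP, with 0.52 (standard error 0.199, adjusted p = 0.0231). The LRP2BP call was lost in 9 of 20 alternatives, among them HEK WT alone (adjusted p = 0.0876 in edgeR's test), HEK UL1 KO alone (0.0878), no filter (0.0757) and the replicate block (0.0682). SORBS2 was unlike the others in how the fractions compared in each genotype. In HEK WT, its mean was 1.26 ± 0.323 CPM in CN and 3.38 ± 1.26 CPM in NO (SD, n = 3), a log2 difference of 1.43 (standard error 0.255), and in HEK UL1 KO it was 13.9 ± 0.792 and 15.4 ± 1.11 CPM (SD, n = 3), a log2 difference of 0.14 (standard error 0.234). The KO effect on SORBS2 was thus smaller in NO than in CN by 1.29 (standard error 0.345), while for the other 9 genes the difference of effects ran from -0.24 to 0.33. These differences contain the contrast used in the choice and were not tested.

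**Figure D4:**
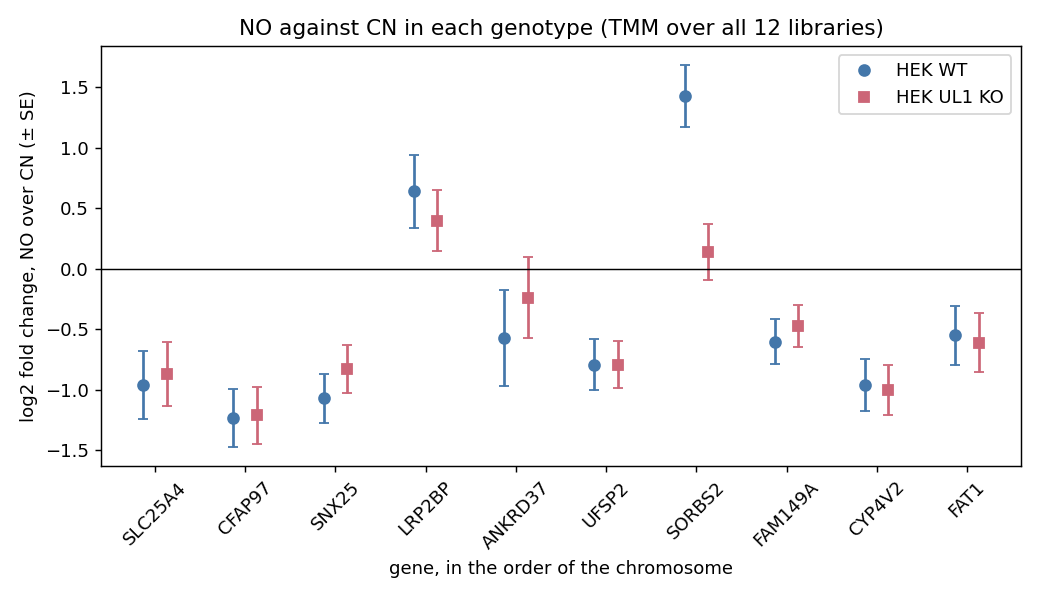
Log2 fold change of NO over CN (vertical axis, with standard error) in HEK WT (blue circles) and HEK UL1 KO (red squares) for the 10 genes in chromosome order, with TMM over all 12 libraries. SORBS2 is at 1.43 in HEK WT and 0.14 in HEK UL1 KO, LRP2BP is above 0 in both, and the other 8 are below 0 in both on this scale.

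For the flanking and related genes, the difference of the KO effect between NO and CN was tested as an interaction. None of the 82 genes passed in edgeR's test, where 0.114% of all genes did. Before adjustment, 4 had p under 0.05: SNX19, DCHS2, SLC2A3 and CYP4F2. The share of all genes with an unadjusted p under 0.05 is not given, so nothing is read from this count. DESeq2 called 1, SNX19, with a smaller effect in NO by 2.01 on the log2 scale (adjusted p = 0.00192). SNX19 had a difference of -1.98 in edgeR's test (adjusted p = 0.0817).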

How the data were processed

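The authors trimmed single reads of 75 bases with Cutadapt 3.7, aligned them to GRCh38 with STAR 2.7.8 keeping reads with as many as 20 alignments, and deposited raw counts per gene from featureCounts, without normalization, as 1 table per fraction. The annotation version and strand setting are not given in the sources used here. All 12 columns were matched to labels. Counts were filtered with filterByExpr (minimum count 10, minimum total 15), scaled with TMM and tested with edgeR 4.0.16 quasi-likelihood tests in R 4.3.3 (limma 3.58.1), with Benjamini-Hochberg adjustment over all genes and a threshold of 0.05. The genotypes were compared separately in CN and in NO. NO was compared with CN, and the interaction tested, in 1 fit of all 12 libraries. Alternatives were DESeq2 1.42.0, total counts, TMM without rRNA genes, a single fit of all 12 libraries, no filter, a minimum of 10 counts per library, a replicate block, single genotypes and leaving out each library. The methods were tested on simulated counts.

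The genes, lists and interval were chosen with earlier results of these data known. Named are the 10 genes, other protein-coding genes from 185 to 187 Mb, the nearest 2 tested on each side, HNRNPUL1, and of the flanking genes and each related list at most 3 called genes per direction with the largest change. A few results that this rule would name are not reported here. FRG1 and CDKN2AIP also follow as a nearest gene and as the smallest rise, the latter named after its value was seen, as were DUX4 and the genes of the interaction. Positions and start windows came from RefSeq (GRCh38.p14), where each of the 10 genes matched, and exon lengths from GENCODE. Figures were drawn with Python 3.11.15 and matplotlib 3.10.9. Depth of 37141666 to 104040073 counts per library leaves less precision for genes with few counts.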

Additional observations from a re-analysis of the deposited data

How the results depend on the processing

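All log2 fold changes of HEK UL1 KO against HEK WT for the 10 genes stayed above 0, in 130 of 130 alternative values in CN (0.68 to 3.73) and 129 of 129 in NO (0.39 to 2.41). The 10 genes were chosen on this contrast and the alternatives reuse the same libraries, so these values are a description. In the main fits, 52.4% of all genes in CN and 50.3% in NO were above 0. Total counts moved the median of all genes by 0.20 in CN and 0.39 in NO, and the median of the 10 from 0.99 to 1.20 and from 0.88 to 1.45. They also left 15 related genes called in CN (26 with TMM), 0 flanking and 0 related genes called in NO (3 of each with TMM) and 3 of the 10 genes called between NO and CN (9 with TMM), with ANKRD37 at 0.24, FAM149A at 0.14 and FAT1 at 0.03. In 1 fit of all 12 libraries, 13 related genes were called in CN, and 13 flanking and 6 related genes in NO. DESeq2 called 8 flanking genes in NO and 1 gene for the difference of effects, SNX19, which was also the 1 gene called with no filter. With no filter, 5 related genes were called in NO. HEK WT libraries alone gave 5 of the 10 called between NO and CN. The cause of these moves was not tested. Shares of all genes called are given for the main fits alone. The counts called under other settings, here and with 1 library left out, are therefore a description.

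Leaving out 1 library at a time gave medians of the 10 of 0.96 to 1.08 in CN and 0.66 to 1.15 in NO. It gave 15 to 16 flanking genes called in CN and 0 to 13 in NO, 20 to 25 related genes in CN and 1 to 15 in NO, 8 to 9 of the 10 between NO and CN, and 0 to 1 for the difference of effects, SNX19 without HEK WT CN replicate 2 or HEK WT NO replicate 2. No effect shared by libraries of the same replicate number was seen. Centred on their groups, such libraries correlated at -0.482 to -0.0439 across genes. In each of 4 pairs of groups, 0 of 6 libraries correlated best with their own number. With 3 libraries per group, these values do not show whether libraries of the same number came from the same culture. With the replicate number as a block, 1 related gene was called in NO, and 8 of the 10 genes between NO and CN, without LRP2BP (adjusted p = 0.0682). Counts per gene, down to 9 in ANKRD37, limit the low genes.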

Other observations

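Long non-coding RNA genes of the 2-Mb interval around the 10 genes were also higher in HEK UL1 KO. The median log2 fold change was 1.52 over 5 genes in CN and 1.63 over 7 in NO. Over all long non-coding RNA genes outside chromosome 4, it was 0.41 and 0.26. The interval was chosen for its median, so these values are a description.

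By the median of its protein-coding genes, chromosome 4 ranked 2 of 23 chromosomes in both fractions, with 0.27 in CN and 0.22 in NO. Chromosome 15 ranked 1, with 0.34 and 0.27, and chromosome 8 ranked 3, with 0.20 and 0.18. The lowest were chromosome 9 in CN, at -0.33, and chromosome 22 in NO, at -0.47. These values are descriptions and were chosen after they had been seen.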
